A study of Mus musculus with 10 samples.

Results

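The insulin-like growth factor (IGF) signalling genes described here are 7 rows of the deposited count table, which holds 25239 gene symbols. They were taken by symbol from a fixed list of the ligands Igf1 and Igf2, the receptors Igf1r, Igf2r and Insr, and the adaptors Irs1 and Irs2, and all 7 were found and passed the filter on low counts. IGF1 and IGF2 are small secreted growth factors. Both act through the IGF1 receptor, a tyrosine kinase, and a splice form of the closely related insulin receptor also binds IGF2. The activated kinases phosphorylate the docking proteins IRS1 and IRS2, which recruit phosphatidylinositol 3-kinase (PI3K) and so switch on AKT and mTOR. In the skeleton the pathway is known for promoting the growth of cartilage and the function of osteoblasts.

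The RNA came from calvarial suture cells, isolated by fluorescence-activated sorting from mice at postnatal day 7. The labels name 5 DDR2-plus libraries and 5 PSC libraries, and do not expand the name PSC. Both groups carry the genotype label WT, whereas the extraction protocol, given identically for both, names mice with a Ctsk-Cre transgene, a recombinase under the promoter of the cathepsin K gene, so the alleles of the animals are not settled by the labels. The protocol states 5 animals without tying them to libraries, so the p-values reflect the spread between libraries alone, and that spread may be technical.

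Total counts were 49843470 to 62021992 in DDR2-plus libraries and 43419129 to 58270419 in PSC libraries, and the lowest count of any of the 7 genes in a library was 1016. Levels are given as CPM, which are counts put on 1 common library size, after TMM factors, which correct for differences in RNA composition. Col1a1 and Col1a2 took 4.56% to 8.24% of counts in DDR2-plus and 21.5% to 23.7% in PSC. Ddr2 itself averaged 112 ± 3.55 CPM in DDR2-plus, beside 152 ± 10.7 CPM in PSC (SD, n = 5 each), and Ctsk 107 ± 15.2 CPM in DDR2-plus against 294 ± 15.0 CPM in PSC. Some marker lists set the libraries apart as well. All 10 chondrocyte markers were higher in DDR2-plus, and 8 of 10 osteoblast and 7 of 8 tendon markers were lower. Higher there were also 7 of 8 neuronal, 7 of 8 pineal and photoreceptor, and 8 of 8 Schwann and glial markers. Over all tested genes 20.1% were higher and 19.0% lower. Other lists were mixed or gave few calls. Of 8 tested endothelial markers 3 were higher and 2 lower, and of 2 tested osteoclast markers 1 was higher and 1 lower. Of 7 tested muscle and 11 tested macrophage markers, 1 each was higher and 0 were lower.

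DDR2-plus cells had less Igf1 mRNA and more Irs1, Irs2 and Igf2r mRNA than PSC cells. Of the 7 genes, 3 were higher and 1 was lower in DDR2-plus by edgeR's quasi-likelihood test at an adjusted p under 0.05, while 20.1% of all 15416 tested genes were called higher, 19.0% lower and 39.1% in either direction. Igf2, Igf1r and Insr did not pass. The libraries of the groups did not overlap for Irs1 and Irs2, which were higher, and for Igf1, which was lower. Over all tested genes there was no such overlap for 15.6% in the higher direction, for 14.6% in the lower direction, and for 30.1% in all. The median log2 fold change of the 7 genes was 0.21, beside 0.04 for all tested genes.

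**Figure D1:**
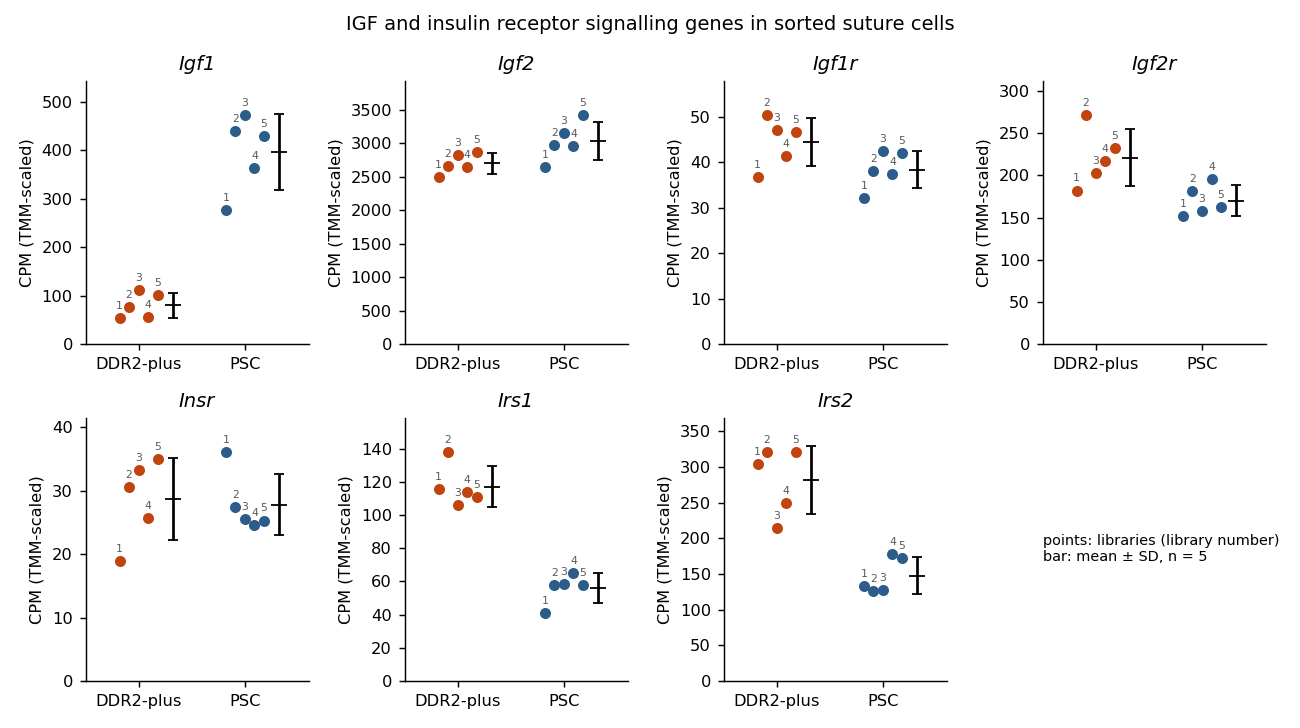
TMM-scaled CPM of each of the 7 genes in every library, with DDR2-plus on the left and PSC on the right of each panel, the library number above each point, and bars for the mean ± SD (n = 5 each). Igf1 sat between 53.7 and 111 CPM in DDR2-plus and between 277 and 472 CPM in PSC, whereas the points of Igf2, Igf1r, Igf2r and Insr overlapped between the groups.

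Igf1 encodes the ligand that liver releases into blood and that bone cells also make locally. The gene lies on mm10 chromosome 10, 87858265 to 87937042, plus strand. It had 53.7, 77.7, 111, 55.2 and 102 CPM in DDR2-plus 1 to 5, and 277, 440, 472, 363 and 430 CPM in PSC 1 to 5. Every DDR2-plus library was below every PSC library, and the lowest PSC library, number 1, was still well above the highest DDR2-plus library. The means were 79.9 ± 26.3 CPM in DDR2-plus, beside 396 ± 77.6 CPM in PSC (SD, n = 5 each). Igf1 was 4.96-fold lower in DDR2-plus, a log2 fold change of -2.31 (SE 0.219, 95% interval -2.79 to -1.84; edgeR adjusted p = 5.24e-06).

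In these bulk libraries fewer cells of a type and less RNA per cell cannot be told apart. Like Igf1, the summed level of the 10 osteoblast markers was lower in DDR2-plus, at 29687 to 52672 CPM, beside 160847 to 182612 CPM in PSC. Without Col1a1, the most abundant of them, it was 6743 to 13746 CPM in DDR2-plus, beside 34573 to 47654 CPM in PSC. Within PSC, library 1 had the lowest Igf1 but the highest of both sums, 182612 and 47654 CPM. Within DDR2-plus the libraries had the same order for Igf1 and the full sum, but not for the sum without Col1a1. The 8 tendon markers summed to 3290 to 4242 CPM in DDR2-plus, beside 5187 to 6136 CPM in PSC. Fmod, the gene of the proteoglycan fibromodulin and the tendon marker that was higher, made up 93.4% of the DDR2-plus sum and 44.4% of the PSC sum, and the other 7 summed to 200 to 330 CPM in DDR2-plus, beside 2888 to 3456 CPM in PSC. The sums without Col1a1 and Fmod were added after the data were seen. The part of these cells in the Igf1 result was not tested. Macrophages, which also make IGF1, left few transcripts. Of their 15 markers 1, the lysozyme gene Lyz2, was called higher in DDR2-plus and 0 lower, 10 did not pass and 4 were below the filter. They summed to 20.5 to 36.5 CPM in DDR2-plus, beside 11.3 to 26 CPM in PSC. The macrophage receptor gene Csf1r was at 1.14 CPM in DDR2-plus against 2.18 CPM in PSC. Adgre1, the macrophage marker F4/80, was at 0.258 CPM in DDR2-plus, beside 0.0498 CPM in PSC. The part of macrophages in the Igf1 result was not tested either.

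Igf2 encodes the ligand of fetal growth, which in mouse is made from the paternal copy of the imprinted gene. It lies on chromosome 7, 142650766 to 142666816, minus strand. It had 2489, 2660, 2823, 2652 and 2876 CPM in DDR2-plus 1 to 5, and 2641, 2980, 3158, 2955 and 3416 CPM in PSC 1 to 5. The groups overlapped, since PSC 1 lay within the range of the DDR2-plus libraries. The log2 fold change was -0.17 (SE 0.0744, 95% interval -0.33 to -0.01), with an unadjusted p of 0.0442 and an edgeR adjusted p of 0.0961. Igf2 passed as lower without PSC 1 (log2 fold change -0.21, edgeR adjusted p = 0.0318) and with the library number as a replicate block (-0.16, edgeR adjusted p = 0.041), and its sign turned when libraries were scaled by size alone (0.10, edgeR adjusted p = 0.291). Of its exonic bases 64.5% are shared with the annotated genes Gm49394 and Igf2os. Igf2os, the antisense partner, stood at 6.16 CPM in DDR2-plus, beside 2.86 CPM in PSC, and without strand its reads cannot be told from those of Igf2.

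The balance between the ligands differed between the populations. Per kilobase of exon, Igf2 exceeded Igf1 by 80.3, 59.2, 44.0, 83.1 and 48.8 times in DDR2-plus 1 to 5, and by 16.5, 11.7, 11.6, 14.1 and 13.8 times in PSC 1 to 5. This ratio is taken within a library and so does not depend on how libraries are scaled. On the log2 scale the ratio of Igf1 to Igf2 averaged -5.93 ± 0.413 in DDR2-plus and -3.75 ± 0.211 in PSC (SD, n = 5 each). The difference of -2.19 had a two-sided exact permutation p of 0.00794, the smallest that 5 against 5 allows, and p = 0.0238 after adjustment over the 3 ratios tested.

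Among the receptors, Igf1r encodes the kinase through which both ligands signal. The gene lies on chromosome 7, 67952827 to 68233668, plus strand. It had 36.8, 50.3, 47.0, 41.4 and 46.7 CPM in DDR2-plus 1 to 5, and 32.1, 38.0, 42.4, 37.5 and 42.0 CPM in PSC 1 to 5. The groups overlapped, and the library numbered 1 was the lowest in both. The log2 fold change was 0.21 (SE 0.107, 95% interval -0.02 to 0.44; edgeR adjusted p = 0.137), an interval that includes 0. Scaled by library size alone, Igf1r passed as higher in DDR2-plus (log2 fold change 0.48, edgeR adjusted p = 0.00222). That scaling moved the median log2 fold change over the tested genes to 0.31, so the other fold changes given for it carry the same shift.

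Insr encodes the insulin receptor and lies on chromosome 8, 3122061 to 3279617, minus strand. It had 18.9, 30.6, 33.2, 25.7 and 35 CPM in DDR2-plus 1 to 5, and 36.1, 27.5, 25.5, 24.6 and 25.3 CPM in PSC 1 to 5. The libraries numbered 1 were the lowest of DDR2-plus and the highest of PSC, and PSC 1 was the highest of all 10. The means were 28.7 ± 6.52 CPM in DDR2-plus, beside 27.8 ± 4.78 CPM in PSC (SD, n = 5 each), with a log2 fold change of 0.04 (SE 0.167, 95% interval -0.32 to 0.41; edgeR adjusted p = 0.864). Without both libraries numbered 1, which was tried after the data were seen, the log2 difference was 0.27 with an edgeR adjusted p of 0.104.

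The log2 ratio of Igf1r to Insr per kilobase was 0.37 ± 0.213 in DDR2-plus and 0.18 ± 0.377 in PSC (SD, n = 5 each). It ranged from 0.13 to 0.68 in DDR2-plus and from -0.46 to 0.44 in PSC, so the groups overlapped (exact permutation test, two-sided p = 0.421, adjusted p = 0.421).

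Igf2r encodes the cation-independent mannose 6-phosphate receptor, which has no kinase. It takes up IGF2 for breakdown and carries newly made enzymes to the lysosome. The gene lies on chromosome 17, 12682406 to 12769664, minus strand, and in mouse is expressed mainly from the maternal copy. It had 182, 271, 203, 217 and 232 CPM in DDR2-plus 1 to 5, and 152, 181, 158, 196 and 162 CPM in PSC 1 to 5. DDR2-plus 1 lay below PSC 4, so the groups overlapped at that end. Igf2r was 1.30-fold higher in DDR2-plus, with means of 221 ± 33.4 CPM beside 170 ± 18.1 CPM in PSC (SD, n = 5 each; log2 fold change 0.38, SE 0.107; edgeR adjusted p = 0.0132). The antisense RNA Airn is transcribed from within Igf2r. Its annotated exons share none of the exonic bases of Igf2r, and an overlap of unspliced RNA was not examined. Airn stood at 12.4 CPM in DDR2-plus, beside 11.9 CPM in PSC (edgeR adjusted p = 0.797).

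Both adaptors were higher in DDR2-plus. Irs1 encodes the docking protein best known for relaying IGF signals in growth and bone, and lies on chromosome 1, 82233101 to 82291416, minus strand. It had 116, 138, 106, 114 and 111 CPM in DDR2-plus 1 to 5, and 41.0, 57.7, 58.3, 65.0 and 57.8 CPM in PSC 1 to 5. Every DDR2-plus library was above every PSC library. Irs1 was 2.09-fold higher in DDR2-plus, with means of 117 ± 12.1 CPM beside 56.0 ± 8.90 CPM in PSC (SD, n = 5 each; log2 fold change 1.06, SE 0.116; edgeR adjusted p = 1.51e-05). The antisense gene model Gm9747 covers 30.9% of its exonic bases, and without strand those reads cannot be assigned to Irs1 alone.

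Irs2 encodes the docking protein best known from insulin action in liver and pancreatic islets, and lies on chromosome 8, 10984681 to 11008458, minus strand. It had 304, 321, 215, 250 and 321 CPM in DDR2-plus 1 to 5, and 133, 126, 127, 178 and 173 CPM in PSC 1 to 5. The groups again did not overlap. Irs2 was 1.91-fold higher in DDR2-plus, with means of 282 ± 47.5 CPM beside 147 ± 25.9 CPM in PSC (SD, n = 5 each; log2 fold change 0.94, SE 0.138; edgeR adjusted p = 0.000165). The log2 ratio of Irs1 to Irs2 per kilobase was -1.79 ± 0.206 in DDR2-plus and -1.93 ± 0.263 in PSC, a difference of 0.14 with overlapping groups (SD, n = 5 each; two-sided exact permutation p = 0.349, adjusted p = 0.421).

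**Figure D2:**
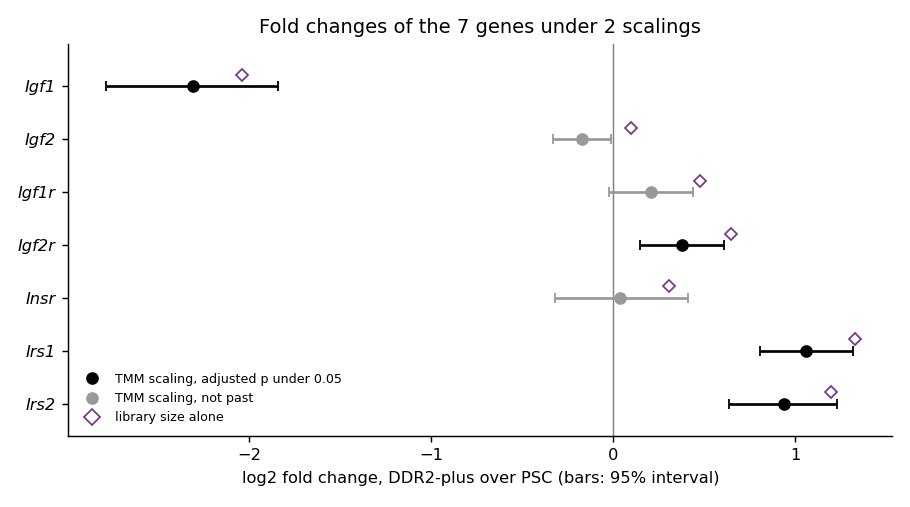
Log2 fold changes of the 7 genes, DDR2-plus over PSC, with 95% intervals from the edgeR fit under TMM scaling (filled points, black where the adjusted p was under 0.05) and the values with library size alone (open diamonds). Igf1 stands alone on the left at -2.31, Irs1 and Irs2 lie near 1 on the right, and the diamond of Igf2 is on the other side of 0 from its filled point.

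Other transcripts were higher in DDR2-plus too. In a list of 14 early response and heat shock genes, chosen after the data were seen, 12 were higher in DDR2-plus and 0 lower. Hspa1a and Hspa1b were not past the threshold. Over all tested genes 20.1% were higher and 19.0% lower. The list summed to 20279 to 24769 CPM in DDR2-plus, beside 8720 to 13272 CPM in PSC. The 10 chondrocyte markers summed to 88238 to 121247 CPM in DDR2-plus, beside 12131 to 26626 CPM in PSC. Col2a1 made up 74.8% of the DDR2-plus sum and 68.2% of the PSC sum. The other 9 summed to 23078 to 30449 CPM in DDR2-plus, beside 4720 to 7445 CPM in PSC. Markers of neurons summed to 42.0 to 138 CPM in DDR2-plus, beside 6.78 to 15.0 CPM in PSC. Those of pineal and photoreceptor cells summed to 177 to 278 CPM in DDR2-plus, beside 4.37 to 7.82 CPM in PSC. Those of Schwann cells and glia summed to 437 to 949 CPM in DDR2-plus, beside 40.7 to 96.2 CPM in PSC. S100b made up 36.3% of this DDR2-plus sum and 72.1% of this PSC sum. The other 7 Schwann and glial markers summed to 211 to 702 CPM in DDR2-plus, beside 8.08 to 41.2 CPM in PSC. The sums without Col2a1 and S100b were added after the data were seen. The pineal and photoreceptor genes Aanat and Cdhr1 were at 0 in all PSC libraries. Asmt, of the same list, made up most of its PSC sum, at 4.32 to 7.52 CPM. Asmt averaged 3.74 CPM in DDR2-plus, beside 5.86 CPM in PSC, and did not pass (edgeR adjusted p = 0.0588). The part of these transcripts in the adaptor result was not tested.

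The stretches before the starts of Irs1 and Irs2 are shown because both adaptors rose. Both come from RefSeq on GRCm38.p6, are written 5′ to 3′ on the minus strand, which is that of the genes, and end at the base before the RefSeq start. That start lies 23 bases (Irs1) and 471 bases (Irs2) upstream of the GENCODE start, which is the higher of the coordinates given for each gene, and all distances are counted from the RefSeq start. Irs1 spans chr1:82291440-82291689 and Irs2 spans chr8:11008930-11009179. Capitals mark matches to 3 motifs searched on both strands and chosen after the letters had been seen: CAAAACA, the core of the insulin response element bound by FOXO factors, which reads TGTTTTG on the other strand, GTAAACA, the FOXO core, which reads TGTTTAC on the other strand, and CACGTG, the E-box.
Irs1: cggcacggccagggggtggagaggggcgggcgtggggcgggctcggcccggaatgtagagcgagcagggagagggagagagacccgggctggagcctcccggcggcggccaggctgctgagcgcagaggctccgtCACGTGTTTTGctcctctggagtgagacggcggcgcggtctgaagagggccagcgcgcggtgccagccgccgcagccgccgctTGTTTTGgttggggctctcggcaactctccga
Irs2: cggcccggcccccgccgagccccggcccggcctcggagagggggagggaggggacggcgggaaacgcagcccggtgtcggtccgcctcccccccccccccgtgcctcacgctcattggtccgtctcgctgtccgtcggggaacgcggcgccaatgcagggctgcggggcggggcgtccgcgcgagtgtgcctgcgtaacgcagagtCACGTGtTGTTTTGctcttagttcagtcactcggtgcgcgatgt

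In Irs1 the E-box begins 115 bases before the start, and the insulin response core begins 111 bases before it, overlapping the E-box, and again 32 bases before it. In Irs2 the E-box begins 44 and the insulin response core 37 bases before the start. The FOXO core matched neither. Among 32851 RefSeq windows of 250 bases, 5.56% held the core of the insulin response element on either strand, 3.17% the FOXO core, 6.02% the E-box and 0.295% both the insulin response core and the E-box. These began within 20 bases of each other in 0.0457% of windows. The motifs, and so the distance between them, were chosen after the letters had been seen. The shares therefore cannot say how unusual the matches before the adaptor genes are. These matches are descriptions of letters and not of binding. The table also holds windows for Igf1, Igf1r, Igf2 (4 starts) and Igf2r. Of these only that of Igf2r held a match, with the E-box beginning 48 and 7 bases before the start.

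Levels were compared between the genes per kilobase of annotated exon. In DDR2-plus the order was Igf2 at 472 ± 26.6 CPM per kilobase, Irs2 at 44.6 ± 7.51, Igf2r at 23.7 ± 3.58, Irs1 at 12.8 ± 1.35, Igf1 at 8.07 ± 2.65, Igf1r at 2.64 ± 0.317 and Insr at 2.09 ± 0.476 (SD, n = 5). In PSC it was Igf2 at 529 ± 50.0 CPM per kilobase, Igf1 at 40.0 ± 7.85, Irs2 at 23.3 ± 4.11, Igf2r at 18.3 ± 1.95, Irs1 at 6.12 ± 0.976, Igf1r at 2.28 ± 0.248 and Insr at 2.02 ± 0.348 (SD, n = 5). Igf1 thus ranked 5 of 7 in DDR2-plus and 2 of 7 in PSC, and the other genes kept their order among themselves. The libraries of Igf1r and Insr overlapped in both groups. In PSC those of Igf1 overlapped with those of Irs2, and those of Irs2 with those of Igf2r. With the longest coding transcript as the length, an alternative chosen after seeing the data, the order was the same in both groups.

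**Figure D3:**
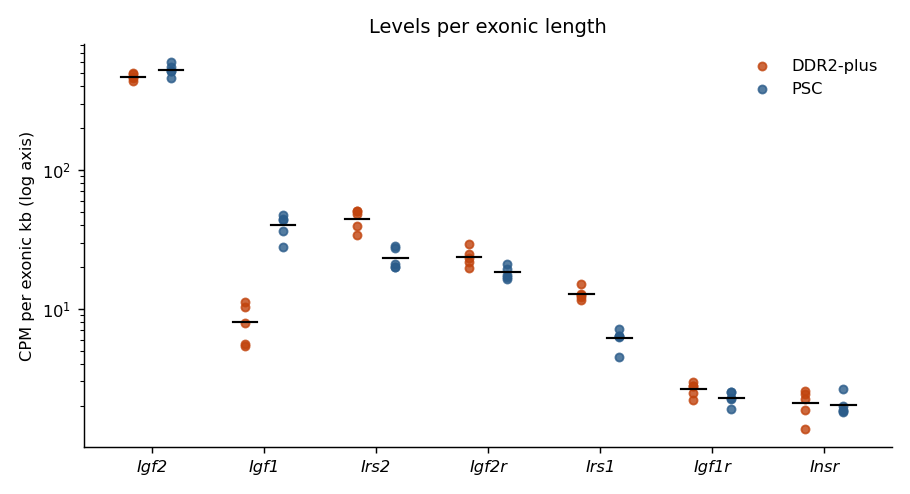
CPM per kilobase of annotated exon (log axis) for the 7 genes in each library, DDR2-plus left of PSC, with a line at each mean. Igf2 lies above 400 CPM per kilobase in every library, Igf1r and Insr lie below 3, and Igf1 changes its place between the groups.

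Transcripts of the remaining insulin ligands and of related receptors were scarce. Ins1 had 0 counts in every library, and Ins2, Insrr and Irs4 were below the filter. Irs3, a further docking protein of rodents, was at 0.253 CPM in DDR2-plus, beside 0.913 CPM in PSC (edgeR adjusted p = 0.054). Of the 10 tested genes of this list of 14, 3 rose and 2 fell, with a median log2 fold change of -0.12, where 20.1% of all tested genes were higher and 19.0% lower. The lower count was 1 without any 1 of DDR2-plus 1, 3, 4 and 5 and PSC 1, 2 and 4, and 3 with DESeq2 and without PSC 5. The higher count stayed between 2 and 4. Frs2, the docking protein of FGF receptors, was 1.98-fold higher in DDR2-plus (72.0 ± 10.3 CPM in DDR2-plus against 36.3 ± 6.93 CPM in PSC; edgeR adjusted p = 0.000119), and Dok1 was 1.40-fold and Gab1 1.22-fold higher (edgeR adjusted p = 0.0125 and 0.02). Gab2, a docking protein that binds PI3K, was 2.87-fold lower (7.25 ± 2.31 CPM in DDR2-plus against 20.8 ± 3.83 CPM in PSC; edgeR adjusted p = 0.00014), and the adaptor gene Sh2b1 1.25-fold lower (edgeR adjusted p = 0.0375). Gab1 and Sh2b1 are named after their values were seen. The linker genes Shc1, at 147 CPM in DDR2-plus against 138 CPM in PSC, and Grb2, at 41.8 CPM in DDR2-plus, beside 47.7 CPM in PSC, did not pass, though Shc1 passed as higher with library size alone (log2 fold change 0.37, edgeR adjusted p = 0.00831).

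Of 15 listed genes of proteins that bind or release the ligands 14 were tested, of which 2 rose and 6 fell, with a median log2 fold change of -0.61, where 20.1% of all tested genes were higher and 19.0% lower. Igfbp3, the main carrier in serum, was at 39.3 ± 16.7 CPM in DDR2-plus, beside 267 ± 77.3 CPM in PSC, and so 6.81-fold lower (edgeR adjusted p = 1.56e-05). Adam12, a metalloprotease that cleaves IGF-binding proteins, was 2.86-fold lower (edgeR adjusted p = 7.61e-06), and the binding protein genes Igfbp5 and Igfbp6 were 3.36-fold and 7.55-fold lower. Igfals, the acid-labile subunit that joins IGF and binding protein into a ternary complex, was 2.66-fold higher (26.5 ± 1.55 CPM in DDR2-plus against 9.96 ± 4.01 CPM in PSC; edgeR adjusted p = 0.000409), and the serine protease gene Htra1 1.52-fold higher (edgeR adjusted p = 7.32e-05). Igfbp3, Igfals and Htra1 are named beside the genes that the naming rule took, after their values were seen. Igfbp2, at 140 CPM in DDR2-plus against 160 CPM in PSC, and Adam9, at 49.1 CPM in DDR2-plus, beside 59.3 CPM in PSC, did not pass, though Adam9 passed as lower with the replicate block (log2 fold change -0.29, edgeR adjusted p = 0.0322). Of 4 proprotein convertase genes, whose enzymes trim precursors of growth factors, 3 fell and 0 rose, beside the same shares over all tested genes. Pcsk5 was 4.16-fold lower (49.6 ± 16.0 CPM in DDR2-plus against 206 ± 23.1 CPM in PSC; edgeR adjusted p = 3.89e-06), Pcsk6 2.37-fold lower and Pcsk7 1.46-fold lower. Furin stood at 112 CPM in DDR2-plus against 78.8 CPM in PSC without a call. Pcsk7 lost its call with library size alone (edgeR adjusted p = 0.109), and Furin passed as higher there (0.0147) and without PSC 4 (0.0337).

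Downstream of the adaptors, 5 of 21 genes of the PI3K, AKT and mTOR relay were higher and 4 lower, with a median log2 fold change of 0.08. These shares are near those over all tested genes, of which 20.1% were higher and 19.0% lower. Akt2, a kinase of insulin action, was 1.31-fold higher in DDR2-plus (124 ± 6.19 CPM in DDR2-plus against 94.4 ± 8.94 CPM in PSC; edgeR adjusted p = 0.00125), as was Rheb, the small GTPase that activates mTOR (135 ± 9.30 CPM in DDR2-plus against 103 ± 7 CPM in PSC; edgeR adjusted p = 0.000821). Eif4ebp1, the translational repressor that mTOR phosphorylates, was 2.41-fold lower (35 ± 4.51 CPM in DDR2-plus against 84.3 ± 5.56 CPM in PSC; edgeR adjusted p = 1.11e-06). Akt1 averaged 129 ± 48.6 CPM in DDR2-plus, beside 196 ± 89.2 CPM in PSC, and did not pass, nor did Tsc2 at 58.4 CPM in DDR2-plus against 64.8 CPM in PSC. With library size alone 9 genes of the relay were higher and 1 lower, without both libraries numbered 1 there were 3 higher, and between 4 and 6 were higher under the other alternatives.

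Of 14 genes that restrain the receptors or their lipid signal, 5 rose and 2 fell, with a median log2 fold change of 0.18, where 20.1% of all tested genes were higher and 19.0% lower. The higher count was 3 without any 1 of DDR2-plus 1, 2, 4 and 5 and PSC 1, 4 and 5, and 7 with library size alone. Grb10 and Socs2, both called higher, are counted again below. Grb10 is also listed among the imprinted genes and Socs2 among those of the growth hormone axis, so these lists are not separate observations. The cytokine-induced inhibitor genes Socs1 and Socs3, whose products also act on the insulin receptor and IRS proteins, were 2.52-fold and 2.11-fold higher in DDR2-plus (130 ± 10.4 CPM in DDR2-plus against 51.4 ± 6.68 CPM in PSC, and 1199 ± 87.5 CPM in DDR2-plus against 567 ± 84.1 CPM in PSC; edgeR adjusted p = 9.71e-07 and 5.37e-06). Enpp1, which makes the mineralization inhibitor pyrophosphate and also binds the insulin receptor, was 2.08-fold lower (127 ± 19.9 CPM in DDR2-plus against 264 ± 23.7 CPM in PSC; edgeR adjusted p = 8.79e-06). Inppl1, at 71.3 CPM in DDR2-plus against 63.0 CPM in PSC, and the phosphatase gene Ptpn1, at 68.8 CPM in DDR2-plus, beside 61.9 CPM in PSC, did not pass, though both passed as higher with library size alone.

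FOXO transcription factors are held out of the nucleus when AKT is active. Of 16 FOXO genes and genes known as FOXO targets, 8 rose in DDR2-plus and 0 fell, with a median log2 fold change of 0.39, where 20.1% of all tested genes were higher and 19.0% lower. Trib1, a pseudokinase gene, was 4.90-fold higher (200 ± 43 CPM in DDR2-plus against 40.7 ± 15.1 CPM in PSC; edgeR adjusted p = 1.72e-05). Klf2, a zinc finger factor, was 2.0-fold higher (721 ± 47.2 CPM in DDR2-plus against 360 ± 59.5 CPM in PSC; edgeR adjusted p = 1.51e-05), and Sesn1, a stress sensor that restrains mTOR, 1.61-fold higher (edgeR adjusted p = 0.000111). Txnip, at 227 CPM in DDR2-plus against 264 CPM in PSC, and Cited2, at 48.3 CPM in DDR2-plus, beside 51.1 CPM in PSC, did not pass, though Txnip passed as lower without DDR2-plus 3 (log2 fold change -0.28, edgeR adjusted p = 0.0312). Klf2 and Trib1 are also known as rapidly induced genes. The part of FOXO factors, of AKT or of rapid induction in these differences was not tested. Foxo1, named after its value was seen, stood at 75.6 CPM in DDR2-plus against 63.8 CPM in PSC and passed with an edgeR adjusted p just under 0.05, and between 6 and 8 genes of the list were higher under the alternatives run.

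**Figure D4:**
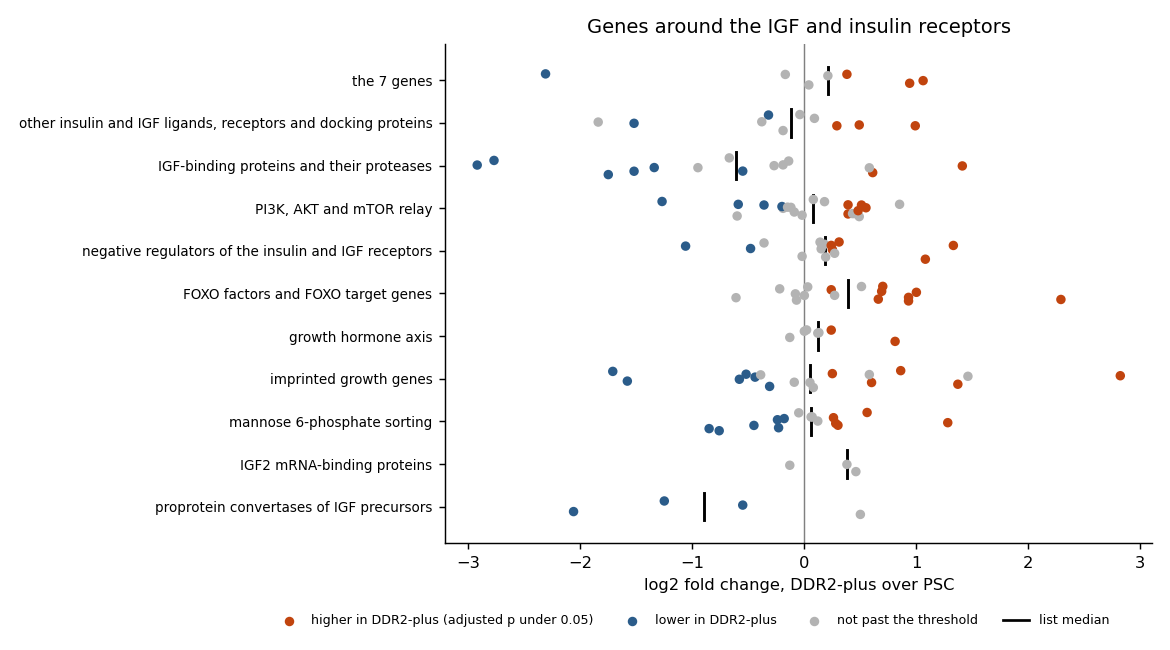
Log2 fold changes, DDR2-plus over PSC, of the tested genes in each list around the IGF and insulin receptors, coloured by the edgeR call, with a black line at the median of each list. The 8 called genes of the FOXO list all lie to the right of 0, whereas 6 of the 8 called genes of the IGF-binding list lie to the left.

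Growth hormone drives Igf1 transcription through JAK2 and STAT5. Of 7 genes of that axis 2 rose in DDR2-plus and 0 fell, where 20.1% of all tested genes were higher and 19.0% lower. The higher count was 1 without any 1 library other than PSC 2, and 4 with library size alone, where Ghr passed as higher (log2 fold change 0.29, edgeR adjusted p = 0.0403). The growth hormone receptor gene Ghr stood at 77.0 ± 8.81 CPM in DDR2-plus, beside 75.9 ± 10.7 CPM in PSC (edgeR adjusted p = 0.903), and Jak2 at 57.3 CPM in DDR2-plus against 52.6 CPM in PSC. Cish, a feedback inhibitor that STAT5 induces, was 1.76-fold higher (31.7 ± 2.61 CPM in DDR2-plus against 18 ± 3.42 CPM in PSC; edgeR adjusted p = 0.000421). Socs2 was 1.18-fold higher (edgeR adjusted p = 0.0454) and lost its call in 11 of 18 alternatives, with an adjusted p of up to 0.138.

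Igf2 and Igf2r are imprinted genes, though imprinting in these cells was not examined for them or for 17 others listed as imprinted. The median log2 fold change of the 17 was 0.05. Of the 17, 5 were higher and 6 lower, where 20.1% of all tested genes were higher and 19.0% lower. Without DDR2-plus 4 the higher count was 3, and with library size alone 9 were higher and 3 lower. H19, the neighbour of Igf2 that shares its enhancers, was at 1021 ± 47.5 CPM in DDR2-plus, beside 963 ± 124 CPM in PSC (edgeR adjusted p = 0.464), and Cdkn1c, a cell cycle inhibitor, at 932 ± 46.4 CPM in DDR2-plus against 994 ± 43.3 CPM in PSC (edgeR adjusted p = 0.245). With library size alone both passed as higher (edgeR adjusted p = 0.00597 and 0.0336), with Cdkn1c changing sign. Mest was 2.98-fold lower in DDR2-plus (239 ± 13.6 CPM in DDR2-plus against 712 ± 88.6 CPM in PSC; edgeR adjusted p = 2.99e-07), Dcn, the small proteoglycan decorin, 3.28-fold lower, and Nnat, the proteolipid neuronatin, 7.06-fold higher (71.3 ± 17.9 CPM in DDR2-plus against 10.1 ± 2.28 CPM in PSC; edgeR adjusted p = 1.17e-06). The genes of IGF2 mRNA-binding proteins gave 0 calls among 3 by edgeR, 0 by limma-voom and 1 by DESeq2, and Igf2bp3 alone had an unadjusted p under 0.05 by edgeR (0.0329). Igf2bp3 passed as higher in edgeR with library size alone (log2 fold change 0.65, edgeR adjusted p = 0.0058) and without PSC 5 (0.47, edgeR adjusted p = 0.0289). Igf2bp2 was at 24.8 CPM in DDR2-plus against 27.1 CPM in PSC and Igf2bp3 at 9.85 CPM in DDR2-plus, beside 7.58 CPM in PSC (edgeR adjusted p = 0.474 and 0.076).

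Igf2r also serves the mannose 6-phosphate route to the lysosome, whose 15 listed genes split into 5 higher and 6 lower, with a median log2 fold change of 0.06, where 20.1% of all tested genes were higher and 19.0% lower. With library size alone 9 were higher and 2 lower. Gnptab, which encodes subunits of the enzyme that makes the mannose 6-phosphate tag, was 2.42-fold higher in DDR2-plus (47.6 ± 9.40 CPM in DDR2-plus against 19.6 ± 6.47 CPM in PSC; edgeR adjusted p = 0.000538), and M6pr, the cation-dependent receptor, 1.23-fold higher (edgeR adjusted p = 0.00667). Both are named after their values were seen. Nagpa, which encodes the enzyme that uncovers the tag, was 1.69-fold lower (edgeR adjusted p = 0.000354). Among the cargo, the protease gene Ctsl was 1.80-fold lower (274 ± 25.3 CPM in DDR2-plus against 494 ± 34.6 CPM in PSC; edgeR adjusted p = 4.18e-06), whereas Ctsd stood at 729 CPM in DDR2-plus against 699 CPM in PSC and Hexa at 217 CPM in DDR2-plus against 224 CPM in PSC without a call. With library size alone Ctsd and Hexa passed as higher (edgeR adjusted p = 0.000473 and 0.0127).

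For each of the 7 genes the 3 most similar patterns were sought by the Pearson correlation of log2 CPM over the 10 libraries. The search took 8725 genes with a mean of at least 10 CPM. Gene models with provisional symbols such as Gm or Rik, microRNA genes and immune receptor segments were left out by symbol. The 10 points share the difference between the populations, so these values are a description. Igf1 was most like Ltbp4 (r = 0.996), Cd81 (0.995) and Abi3bp (0.995), of which Ltbp4, a latent TGF-beta binding protein gene, was at 99.0 CPM in DDR2-plus, beside 520 CPM in PSC. Irs1 was most like Zbtb11 (r = 0.988), Zfpm2 (0.983) and Purb (0.981), and Irs2 like Id4 (0.988), B4galt3 (0.978) and Cdc42bpa (0.976). Id4, an inhibitor of basic helix-loop-helix factors, was at 63.9 CPM in DDR2-plus, beside 19.5 CPM in PSC. Igf2r was most like Ctnna1 (r = 0.958), Rundc1 (0.944) and Slc25a13 (0.929), and Igf2 like Mapkapk5 (0.970), Ubxn6 (0.944) and Paxx (0.936). Igf1r was most like Cemip (r = 0.899), Hdac8 (0.896) and Lclat1 (0.890), and Insr like Copz1 (0.854), Tbc1d5 (0.853) and Frmd4b (0.835).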

How the data were processed

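The table the authors deposited holds raw counts for each gene symbol, since its values are whole and sum to a different total in each of the 10 libraries. Per the labels' protocols, 1 ng of RNA was turned into full-length cDNA by template switching and libraries were made with a transposase, which does not mark the strand, and read paired-end for 50 cycles. Per the submitters' processing notes, reads were placed on mm10 and DESeq was used. The sources used here do not give the aligner, the counter or the annotation.

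All genes were fitted with edgeR 4.0.16 in R 4.3.3 (quasi-likelihood test, TMM factors, filterByExpr, no covariates) and adjusted by Benjamini-Hochberg over the 15416 genes kept, with a threshold of 0.05. DESeq2 1.42.0 and limma-voom (limma 3.58.1) served as alternatives, beside other scalings, no filter on low counts, a replicate block and the removal of each library. Standard errors were computed from each fold change and its F value, and 95% intervals from the t distribution with edgeR's degrees of freedom. Ratios were compared with exact permutation tests (scipy 1.17.1). No libraries of a group agreed within sampling noise (lowest chi-square per degree of freedom 39.2).

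Positions, exonic lengths and overlaps are from GENCODE M21 (mm10). The 7 genes, the 10 pathway lists and the 10 marker lists were chosen with earlier results of these data known. The naming rule took from each pathway list up to 3 members past the threshold with the smallest p and up to 2 of the highest mean CPM that did not pass. Some genes that this rule or a count would name are not reported here.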

Additional observations from a re-analysis of the deposited data

Results flagged for a closer look

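Of 20 sets of 5 libraries examined, made up of the 7 genes and 3 ratios in either population, 1 had a library far from the others, and chance alone sets off about 1 in 20 such sets. Insr in PSC 1 stood at 36.1 CPM, above the 24.6 to 27.5 CPM of the other 4 PSC libraries, and its gap to the nearest of them was 0.744 of the whole range.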

How the results depend on the processing

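Igf1, Igf2r, Irs1 and Irs2 kept their direction and call under the 18 alternatives run for each, with log2 fold changes of -2.47 to -2.04, 0.28 to 0.65, 0.97 to 1.33 and 0.87 to 1.2. When libraries were scaled by size alone, 5408 genes came out higher and 1539 lower, in place of 3096 and 2926, Igf1r passed at 0.48, and the sign of Igf2 turned (0.10). Without 1 library each, counts ran from 2594 to 3191 higher and from 2582 to 2887 lower, and the log2 fold change of Igf2 from -0.21 to -0.12, of Igf1r from 0.15 to 0.27 and of Insr from -0.04 to 0.16, negative without DDR2-plus 3 (-0.03) or 5 (-0.04).

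The replicate block brought the call of Igf2 (log2 fold change -0.16, edgeR adjusted p = 0.041), and changed no other call among the 7 genes. Among the named pathway genes it brought the call of Adam9. Every library correlated best with the library of its own number in the other group, at r of 0.0289 to 0.0532. The titles share these numbers between the groups without saying what they mark, so pairing is possible but not stated. The main fit and the exact permutation tests treated the libraries as unpaired. For the ratio of Igf1 to Igf2 (difference -2.19), sign flips of the 5 same-numbered differences gave an adjusted p of 0.188, where 0.0625 is the smallest unadjusted p possible. The other ratios kept their side of the threshold.

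Among 45 named pathway genes, 24 kept direction and call under all 18 alternatives. With library size alone the sign turned for Grb2 (0.08), Igfbp2 (0.08), Tsc2 (0.12), Txnip (0.06), Cited2 (0.19), Cdkn1c (0.18), Hexa (0.22) and Igf2bp2 (0.14). Leaving out a library turned Ghr (-0.04 to -0.01) and Jak2 (-0.02), neither called. The cause of these shifts was not tested. Amplified reads are not independent molecules, and the 5 libraries per group limit what small differences can be called.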

Other observations

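The library numbered 1 was the lowest of its group for 5 of the 7 genes in DDR2-plus and for 5 of the 7 in PSC. In both groups these included Igf1, Igf2, Igf1r and Igf2r, with Insr added in DDR2-plus and Irs1 in PSC. For Insr in PSC, number 1 was the highest.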
